A study of Mus musculus with 35 samples.

Results

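Lipid-associated tumor macrophages are commonly recognized by a small set of transcripts, and 9 of these (Apoe, Trem2, Gpnmb, Spp1, Lpl, Fabp4, Fabp5, Cd9 and Lgals3) were followed here among the 53379 gene identifiers of the deposited table. The members were found in the table by gene symbol, and the set was chosen with earlier results of these data known. Macrophages that take up dying cells and lipoproteins hydrolyse the lipids, carry fatty acids on binding proteins and export cholesterol onto apolipoprotein E, and the receptor TREM2 senses lipids and apolipoproteins on such cargo. GPNMB, osteopontin (Spp1), the tetraspanin CD9 and galectin-3 (Lgals3) accompany this state in fat tissue, arteries and tumors, although several of them are also made by other cells.

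RNA was sequenced from myeloid-derived suppressor cells (MDSC) of 8 female C57BL/6 mice with orthotopic pancreatic tumors of T110299, a single cell line from a mouse whose alleles included Ptf1a-Cre and LSL-Trp53fl/R172H. The hosts were wild type and matched for age, with an age range in the study's methods and no age per mouse in the labels. The treated mice (4) received 50 µg of poly(I:C) complexed with polyethylenimine, poly(I:C)c, into a vein on days 18 and 20 after tumor induction, and the control mice (4) are labelled untreated, while the treatment protocol names glucose as the control. CD11b+ cells were sorted into PMN-MDSC (Ly6C low, Ly6G+) and M-MDSC (Ly6C high, Ly6G-) of spleen and tumor, and unsorted bulk tumor of untreated mice was sequenced as well. Each of the 9 groups had 4 usable libraries, except for PMN-MDSC from the spleen and M-MDSC from the tumor of treated mice with 3 each. One further library, of M-MDSC from the tumor of a treated mouse, held 10 counts and was left out. Fractions were taken from the same mice, but the names of the deposited columns give no mouse number, only running numbers that follow the order of the titles, so libraries were tested without pairing and the p-values measure the spread between libraries. Totals ranged from 793070 to 4357105 counts in the 30 MDSC libraries and from 3771590 to 8886115 in bulk tumor. Levels are counts scaled to the library total (CPM), and libraries are numbered within each group in the order of the deposited columns.

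All members are protein-coding genes on GRCm38. Apoe lies at chr7:19696109-19699188 on the minus strand. Trem2 lies at chr17:48346401-48354147, Gpnmb at chr6:49036546-49070929, Spp1 at chr5:104435118-104441050 and Lpl at chr8:68880491-68907448, all on the plus strand. Fabp5 (chr3:10012548-10016607) and Fabp4 (chr3:10204088-10208576, minus strand) lie 187480 bases apart, Cd9 lies at chr6:125460266-125494791 on the minus strand, and Lgals3 at chr14:47367751-47386160. RefSeq promoter windows of 300 bases on GRCm38.p6 (250 before to 50 after a transcript start) were found for 6 members, and Lpl, Fabp4 and Fabp5 had no entry. Those of Gpnmb, Trem2, Apoe and Spp1, on which the compartment and treatment results turn, are printed 5′ to 3′ on the strand of the gene, with matches to a motif in capitals. For Apoe and Spp1, which have several windows, the first is shown.
Gpnmb (chr6:49036268-49036567): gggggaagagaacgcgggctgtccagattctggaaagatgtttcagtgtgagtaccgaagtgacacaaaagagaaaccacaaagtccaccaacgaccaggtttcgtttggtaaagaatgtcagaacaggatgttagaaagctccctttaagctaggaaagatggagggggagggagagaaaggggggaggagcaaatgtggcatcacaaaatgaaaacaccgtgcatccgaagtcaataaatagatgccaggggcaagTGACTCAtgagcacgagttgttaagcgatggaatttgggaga
Trem2 (chr17:48346151-48346450): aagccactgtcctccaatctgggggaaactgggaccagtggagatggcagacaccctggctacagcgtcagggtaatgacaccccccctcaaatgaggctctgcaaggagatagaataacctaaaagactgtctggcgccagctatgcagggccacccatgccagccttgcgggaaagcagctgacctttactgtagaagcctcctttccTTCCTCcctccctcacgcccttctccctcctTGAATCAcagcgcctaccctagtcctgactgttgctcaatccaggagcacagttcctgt
Apoe (chr7:19699139-19699438): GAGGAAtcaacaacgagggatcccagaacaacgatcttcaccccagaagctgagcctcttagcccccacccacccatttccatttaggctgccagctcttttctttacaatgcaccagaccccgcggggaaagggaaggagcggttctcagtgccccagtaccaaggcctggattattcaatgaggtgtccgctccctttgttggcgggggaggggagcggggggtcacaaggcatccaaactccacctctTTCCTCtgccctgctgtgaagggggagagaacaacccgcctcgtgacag
Spp1 (chr5:104434861-104435160): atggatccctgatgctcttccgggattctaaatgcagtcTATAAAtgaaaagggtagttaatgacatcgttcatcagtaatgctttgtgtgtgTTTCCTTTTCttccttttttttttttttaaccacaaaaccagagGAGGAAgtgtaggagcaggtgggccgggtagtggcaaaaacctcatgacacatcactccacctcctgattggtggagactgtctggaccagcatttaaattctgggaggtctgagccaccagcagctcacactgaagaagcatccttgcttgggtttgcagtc
Both strands were searched for 5 motifs: the AP-1 site TGANTCA, the E-box CACGTG, the PU.1 core GAGGAA, the core of the interferon-stimulated response element (GAAA, any 2 bases, GAAA) and the TATA box TATAAA. The AP-1 site begins 8 bases after the start in Gpnmb and 9 bases before it in Trem2, and 7.81% of 32851 windows hold one. The PU.1 core, present in 28.3% of windows, occurs in Trem2, Apoe and Spp1. The Spp1 window also holds a TATA box (13.6% of windows) and, on the minus strand, the response element core (3.44% of windows). The E-box (7.15%) was in none of these 4 windows, and the single windows of Cd9 and Lgals3 held none of the motifs. These matches describe letters and not binding.

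The sorted fractions were compared with the transcripts of their labels before the members. PMN-MDSC from the spleen held 34.5 to 84.7 CPM of Ly6g in untreated and 226 to 335 in treated mice. The libraries labelled PMN-MDSC from the tumor held 0 to 9.19 CPM in untreated and 5.02 to 76.2 in treated mice, and the sum over 12 neutrophil markers was 1531 to 5483 CPM in the untreated group, against 25764 to 46107 in the spleen. The sum over 12 macrophage markers moved the other way, with 3208 to 4260 CPM in untreated PMN-MDSC from the tumor against 293 to 934 in the spleen. Untreated M-MDSC held 1977 to 2782 CPM of these macrophage transcripts in the tumor and 399 to 576 in the spleen. Bulk tumor held only 132 to 251. Library 2 of treated M-MDSC from the tumor stood apart, with 2.98 CPM of the monocyte transcript Ly6c2 against 622 and 443 in the other two, and a macrophage sum of 9363 against 2965 and 4906. Library 1 of untreated PMN-MDSC from the spleen had the highest macrophage sum of its group (934, the others 293 to 479), and library 4 of untreated M-MDSC from the tumor was the smallest library. Where leaving out one of these 3 libraries changed a call, the value without it, or a range that includes it, is given. Of 12 markers of the tumor epithelium 2 (Cldn4 and Cldn7) were at 0 in all tumor PMN-MDSC libraries, and the sum over the 11 without Lcn2, which neutrophils also make, was 136 to 831 CPM in untreated tumor PMN-MDSC, 106 to 361 in untreated tumor M-MDSC, 17.6 to 35.4 in untreated spleen PMN-MDSC and 5194 to 6736 in bulk tumor. Lcn2 made up nearly the whole sum in spleen PMN-MDSC (1184 to 2726 CPM of 1204 to 2744). The keratin Krt8 was at 38.8 to 246 CPM in untreated tumor PMN-MDSC, 3.85 to 106 in untreated tumor M-MDSC, 0 in the spleen PMN-MDSC of these mice and 1818 to 2883 in bulk tumor. Adipoq, which defines fat cells, was at 0 in 30 of 34 libraries and at 1 count in the other four.

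Measured per length (FPKM, computed from the counts and the summed exon length), Apoe was the most abundant member in every tumor MDSC group, with a mean of 3964 in untreated and 4641 in treated PMN-MDSC, and 1799.7 in untreated and 4884 in treated M-MDSC. In bulk tumor the order differed, with Spp1 at 1633 FPKM and Apoe at 424. Spleen PMN-MDSC were led by Apoe (168), Cd9 (101.0) and Lgals3 (91.1) in untreated mice and by Lgals3 (157) and Cd9 (83.7) after treatment. Trem2, Gpnmb, Lpl and Fabp4 were scarce, at no more than 12.7 FPKM (Gpnmb in treated tumor M-MDSC) in any group.

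**Figure D1:**
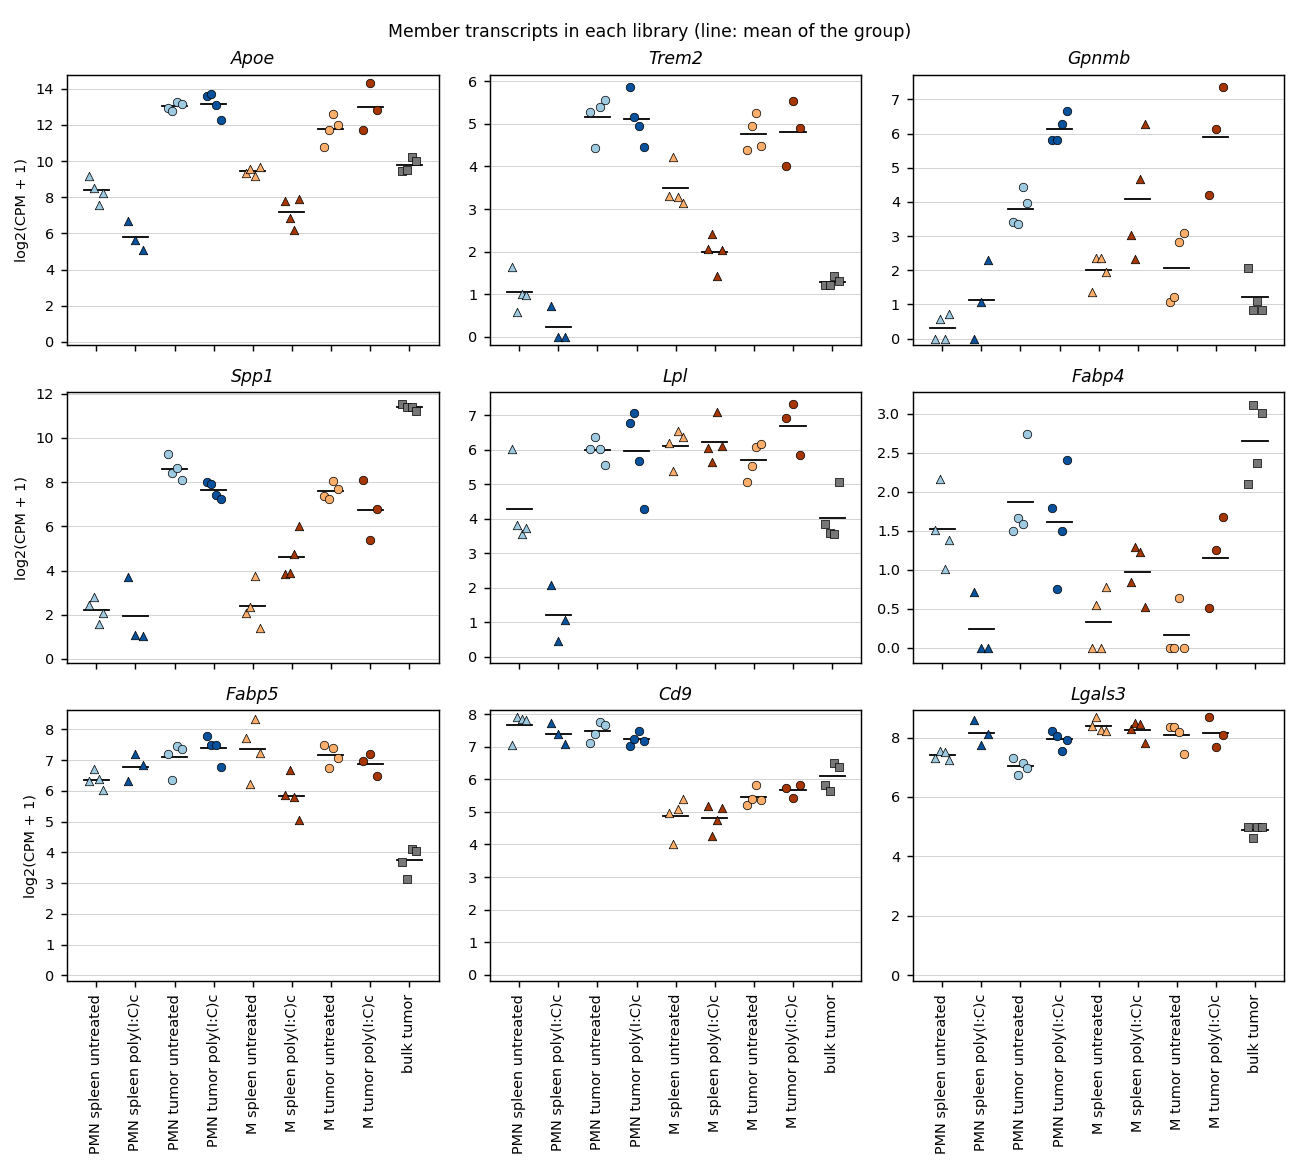
Level of each member as log2(CPM + 1) in all 34 libraries, with 1 point per library, a line at the group mean, circles for tumor MDSC, triangles for spleen MDSC and squares for bulk tumor. The group means of Apoe, Trem2 and Spp1 are higher in tumor than in spleen MDSC, Cd9 separates PMN-MDSC from M-MDSC, and Spp1 alone is highest in bulk tumor without overlap.

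Comparing tumor with spleen, the transcripts of the lipid carrier, its receptor and osteopontin were higher in tumor MDSC of both kinds in untreated mice. In PMN-MDSC of untreated mice 7 of 9 members passed the filter of a mean of 25 counts, and 4 of them were called (adjusted p under 0.05, edgeR's quasi-likelihood test with Benjamini-Hochberg adjustment), 3 higher in tumor and 1 lower, where 59.1% of all 7971 genes tested were called. In untreated M-MDSC 7 members were tested and 4 were called, all higher in tumor, against 28.4% of 8298 genes. In treated mice 7 of 8 tested members were called in PMN-MDSC (5 higher, 2 lower; 53.6% of 8031 genes) and 2 of 8 in M-MDSC (both higher; 5.97% of 9026 genes). Of 99 tests of a member between 2 groups 17 were of a member that averaged under 25 counts in one group and passed the filter through the other alone. Such a member had to differ in its mean count, though it was not always called, so the counts of called members are a description. These cases are named with their counts. In sorted but pooled cells, a change in the number of cells of a type and a change of RNA per cell cannot be told apart.

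Apoe, the main apolipoprotein made by macrophages, stood at 7868, 6929, 9895 and 9210 CPM in the 4 libraries of untreated PMN-MDSC from the tumor and at 586, 366, 186 and 299 in those from the spleen. The groups lay far apart (log2 fold change 4.43, SE 0.36, adjusted p = 9.1e-06), also without library 1 from the spleen (4.70, adjusted p = 2.82e-06). In untreated M-MDSC it stood at 1774, 3424, 6123 and 4070 CPM in the tumor and 640, 757, 576 and 812 in the spleen. The ranges did not overlap, and the difference (2.72, SE 0.31, adjusted p = 4.9e-05) was smaller than in PMN-MDSC. That contrast between the cell types was itself tested and called (log2 difference -1.70, SE 0.46, adjusted p = 0.00825), as for 3 of 7 members tested and 37.5% of 8278 genes. In treated mice tumor PMN-MDSC exceeded spleen PMN-MDSC by 6.90 (SE 0.64, adjusted p = 1.5e-04) and tumor M-MDSC exceeded spleen M-MDSC by 6.10 (SE 0.74, adjusted p = 0.00352), the latter by 5.15 without library 2 from the tumor (adjusted p = 0.00252).

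Trem2, the lipid-sensing receptor, was measured at 37.6, 20.6, 40.8 and 46 CPM in untreated tumor PMN-MDSC and at 2.12, 0.498, 1.02 and 0.963 in the spleen, where 3 of 4 libraries held 3 counts or fewer. It passed the filter through the tumor libraries alone (299 counts against 15), with a fitted difference of 4.71 (SE 0.38, adjusted p = 8.6e-06). Untreated M-MDSC held 19.8, 29.7, 37.4 and 21.4 CPM in the tumor and 8.97, 17.7, 8.69 and 7.86 in the spleen, so spleen M-MDSC already carried Trem2 transcripts (1.63, SE 0.31, adjusted p = 0.00189). The compartment difference was smaller in M-MDSC than in PMN-MDSC (-3.08, SE 0.53, adjusted p = 3.7e-04), a contrast that takes in the 15 counts of spleen PMN-MDSC and so rests on a level near the floor. After treatment the tumor values were 57.2, 34.8, 30.1 and 21.1 CPM in PMN-MDSC against 0.640, 0 and 0 in the spleen, 426 counts against 1 in all. Trem2 passed the filter there through the tumor libraries alone, and its fitted difference (adjusted p = 2.1e-04) depends on the prior count, so no fitted fold is given. The unscaled ratio of these counts per library total was 270-fold, with a 95% exact counting interval of 48.2 to 10689 that covers counting error only. Treated M-MDSC held 15.2, 45.4 and 28.7 CPM in the tumor and 3.16, 4.37, 1.69 and 3.10 in the spleen (3.33, SE 0.44, adjusted p = 0.00570), where it passed through the tumor libraries (312 counts against 35). Without library 2 from the tumor Trem2 did not reach the filter in that comparison.

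Spp1 encodes osteopontin, a secreted ligand of integrins and CD44. Untreated tumor PMN-MDSC held 617, 343, 401 and 272 CPM and spleen PMN-MDSC 4.51, 5.98, 2.03 and 3.21. Every tumor library lay far above every spleen library, and Spp1 passed the filter through the tumor libraries (3227 counts against 45), with a fitted difference of 6.59 (SE 0.39, adjusted p = 1.8e-06). Tumor epithelial markers were higher in the same tumor libraries (136 to 831 against 17.6 to 35.4 CPM over the 11 without Lcn2). Krt8 was at 246, 152, 38.8 and 57.9 CPM in these tumor libraries and at 0 in those of the spleen, and Krt18 at 37.2 to 224 against 0 to 0.996. Their part in the Spp1 difference was not tested. Untreated M-MDSC held 167, 152, 263 and 206 CPM in the tumor and 3.16, 4.18, 12.4 and 1.67 in the spleen (5.52, SE 0.45, adjusted p = 5.2e-06), again through the tumor libraries (1642 counts against 52). The difference between the cell types in this respect did not pass (-1.08, SE 0.64, adjusted p = 0.192). In treated PMN-MDSC Spp1 passed likewise (2365 counts in the tumor, 25 in the spleen), with a fitted difference of 5.20 (SE 0.73, adjusted p = 6.5e-04), whereas in M-MDSC the tumor libraries (274, 40.6 and 109 CPM) met those of the spleen (13.4, 13.7, 25.7 and 64.1) and the difference of 2.37 (SE 0.74) did not pass (adjusted p = 0.106).

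Gpnmb, a lysosomal and surface glycoprotein of lipid-laden macrophages, was too scarce in the untreated compartment comparisons to be tested. Untreated tumor PMN-MDSC held 9.70, 9.21, 20.8 and 14.7 CPM and spleen PMN-MDSC 0, 0.498, 0 and 0.642, which is 116 counts against 3 and a ratio of 56.5 (95% exact counting interval 18.9 to 278). Untreated M-MDSC held 1.10, 1.35, 6.10 and 7.57 CPM in the tumor and 1.58, 4.18, 4.14 and 2.86 in the spleen, so these libraries overlapped. In treated PMN-MDSC it passed the filter through the tumor libraries (760 counts against 14 in the spleen), with a fitted difference of 4.80 (SE 0.63, adjusted p = 5.0e-04). In treated M-MDSC the tumor and spleen libraries overlapped (1.66, SE 1.0, adjusted p = 0.359).

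The remaining members did not follow that pattern. Lpl, the secreted lipase that frees fatty acids from lipoproteins, stood at 64.3, 80.7, 63.5 and 45.5 CPM in untreated tumor PMN-MDSC and at 63.7, 12.9, 10.8 and 12.2 in the spleen. Library 1 from the spleen alone reached the tumor values, and the difference of 1.23 (SE 0.50, adjusted p = 0.0541) became 2.24 without it (adjusted p = 2.88e-05). In treated PMN-MDSC it likewise passed through the tumor libraries (940 counts against 9), with a fitted difference of 5.37 (SE 0.86, adjusted p = 0.00116). M-MDSC carried Lpl at similar levels in the tumor (32.4, 45.2, 66.3 and 70.6 CPM) and the spleen (72.3, 40.4, 91.0 and 81.6), with a difference of -0.17 (SE 0.28, adjusted p = 0.680). The compartment difference of Lpl was not called as different between the cell types (-1.39, adjusted p = 0.0837), except without library 1 of spleen PMN-MDSC (-2.39, adjusted p = 2.13e-04). Fabp5, a binding protein for fatty acids, was called between the compartments in no MDSC comparison, with fitted differences from -0.09 to 1.03 and adjusted p from 0.0656 to 0.886. In untreated PMN-MDSC it was called without library 2 of the spleen (0.86, adjusted p = 0.0110) or of the tumor (0.81, adjusted p = 0.0158).

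Cd9, a tetraspanin that organizes membrane proteins, was higher in the tumor in untreated M-MDSC, with 36.3, 41.1, 55.5 and 40.3 CPM against 30.1, 15.3, 32.7 and 40.9 in the spleen. On plain CPM the highest spleen library exceeded the lowest tumor library, and after TMM scaling the groups did not overlap (0.80, SE 0.25, adjusted p = 0.0341). The call was lost without spleen library 1 or 3 or tumor library 2 or 3 (0.65 to 0.83, adjusted p from 0.0547 to 0.122). In treated PMN-MDSC Cd9 was lower in the tumor (-0.62, SE 0.23, adjusted p = 0.0476), with overlapping libraries, and the call was lost without any one of them except spleen library 3 (-0.43 to -0.70, adjusted p from 0.0529 to 0.168). In untreated PMN-MDSC the Cd9 difference of -0.35 (SE 0.25, adjusted p = 0.237) was called only without spleen library 1 (-0.54, adjusted p = 0.0311). Lgals3, a lectin that binds glycans on the cell surface and at damaged lysosomes, was slightly lower in tumor than in spleen PMN-MDSC, by -0.50 (SE 0.18, adjusted p = 0.0351) in untreated and -0.66 (SE 0.24, adjusted p = 0.0466) in treated mice. The untreated tumor libraries (156, 107, 141 and 126 CPM) met those of the spleen (158, 185, 183 and 151) in 1 pair. The untreated call was lost without spleen library 2 or 3 or tumor library 2, 3 or 4 (adjusted p from 0.0715 to 0.0998), and the treated one without any library except spleen library 2 (adjusted p from 0.0638 to 0.137). In M-MDSC the Lgals3 difference was -0.02 (SE 0.19) and 0.02 (SE 0.29), with adjusted p of 0.951 and 0.981. The contrast of the cell types in untreated mice was 0.48 (adjusted p = 0.176), and 0.64 (adjusted p = 0.0437) without library 4 of tumor M-MDSC.

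**Figure D2:**
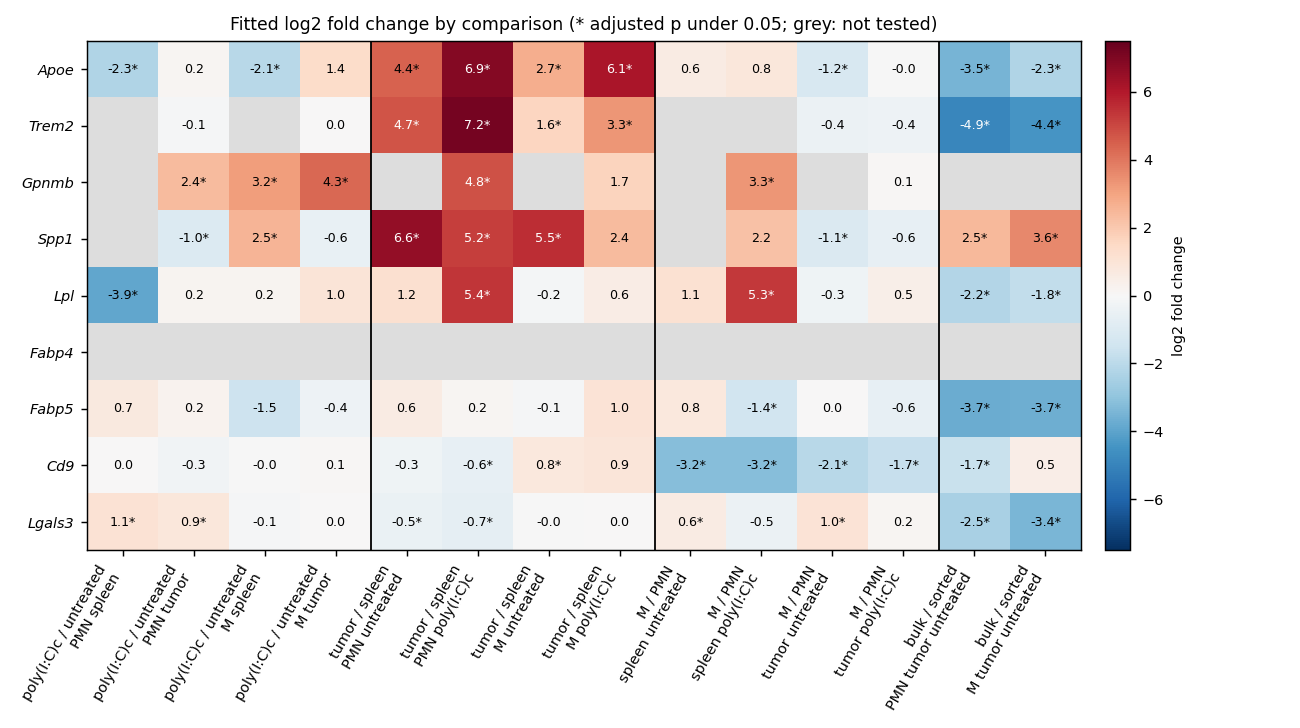
Fitted log2 fold change of the 9 members (rows) in 14 comparisons of 2 groups (columns: poly(I:C)c against untreated, tumor against spleen, M-MDSC against PMN-MDSC, bulk tumor against sorted cells), with red for higher and blue for lower in the first group, an asterisk for an adjusted p under 0.05 and grey for members not tested. The deepest red lies in the tumor-against-spleen columns, for example 6.90 for Apoe in treated PMN-MDSC, the Trem2 value of that column rests on 1 count in the spleen, and Fabp4 was tested in none.

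The second question was what poly(I:C)c changed. Gpnmb was higher after treatment in tumor PMN-MDSC. In spleen and tumor M-MDSC it passed the filter only through the treated libraries (279 and 783 counts, against 34 and 32 in the untreated ones), so its calls there lend no support as a count, and in spleen PMN-MDSC it was too scarce to be tested. Apoe was lower in both spleen populations and called in neither tumor population. Of 5 members tested in spleen PMN-MDSC 3 were called, 1 higher and 2 lower, where 11.6% of 7261 genes were called. In tumor PMN-MDSC 3 of 8 were called, 2 higher and 1 lower (3.36% of 8308 genes). In spleen M-MDSC 3 of 7 were called, 2 higher and 1 lower (19.4% of 8827 genes), and in tumor M-MDSC 1 of 8 was called, which was higher (2.88% of 8360 genes). With edgeR the study's own threshold (adjusted p under 0.001, 2-fold or more) called no member in these 4 comparisons, and 0.0413%, 0.241%, 2.49% and 0.012% of all genes, in the same order. With DESeq2, the test the study used, that threshold called Apoe, Lpl and Lgals3 in spleen PMN-MDSC (7.12% of all genes), Gpnmb in tumor PMN-MDSC (2.32%), Apoe and Gpnmb in spleen M-MDSC (6.91%) and Gpnmb in tumor M-MDSC (2.57%), an alternative added after the data were seen.

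Gpnmb rose in tumor PMN-MDSC from 9.70, 9.21, 20.8 and 14.7 CPM to 54.8, 54.6, 76.6 and 99.9 CPM, without overlap (2.37, SE 0.33, adjusted p = 0.00283), and the call held in all 8 fits that left out 1 library. In tumor M-MDSC it went from 1.10, 1.35, 6.10 and 7.57 CPM to 17.3, 68.6 and 163. Every treated library exceeded every untreated one (4.30, SE 0.82, adjusted p = 0.0324). The difference was as large without library 2 (4.43, adjusted p = 0.0338), and the call was lost without any one of the 4 untreated libraries or without treated library 3, with values from 3.41 to 4.87 and adjusted p from 0.0812 to 0.106. In spleen M-MDSC untreated libraries held 1.58, 4.18, 4.14 and 2.86 CPM and treated ones 7.10, 4.08, 24.6 and 77.0. One treated library was at the untreated level, and the call (3.16, SE 0.94, adjusted p = 0.0471) was lost without any one of the 4 untreated libraries or treated library 3 (2.98 to 3.33, adjusted p from 0.0750 to 0.123). Without treated library 4, the highest, Gpnmb did not reach the filter. That library also held 134 CPM over 5 B cell markers (12.2 to 21 in the other three) and 54.8 over 8 markers of T and NK cells (6.08 to 6.99), and their part in the change was not tested. Spleen PMN-MDSC held 3 counts in the untreated and 14 in the treated libraries together, a ratio of 7.86 (95% exact counting interval 2.19 to 42.7). No difference in the Gpnmb response between spleen and tumor M-MDSC was detected (1.15, SE 1.43, adjusted p = 0.747), nor between tumor PMN-MDSC and M-MDSC (1.93, SE 0.92, adjusted p = 0.580).

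The macrophage marker sum was higher after treatment in M-MDSC of both compartments, and in tumor PMN-MDSC it overlapped with the untreated sum. It was 3220 to 6643 CPM in treated and 3208 to 4260 in untreated tumor PMN-MDSC, 2965 to 9363 and 1977 to 2782 in tumor M-MDSC, and 864 to 1314 and 399 to 576 in spleen M-MDSC. Of its genes in spleen M-MDSC, Adgre1 had a mean of 147 CPM in untreated and 148 in treated mice. The C1qa means there were 13.4 and 29.2 CPM. The sum over 10 monocyte markers was lower after treatment in tumor PMN-MDSC and in both M-MDSC populations. It was 2730.0 to 4461 against 4985 to 9283 CPM in tumor PMN-MDSC, 3416 to 6505 against 10110.3 to 13603 in tumor M-MDSC, and 5386 to 6488 against 7799 to 10458 in spleen M-MDSC. Ly6c2, a gene of this list, went the other way in spleen M-MDSC (785 to 1014 against 119 to 202 CPM). It did so too in tumor PMN-MDSC (67.5 to 245 against 1.90 to 11.2). In tumor M-MDSC its treated libraries held 622, 2.98 and 443 CPM, against 40.3 to 147 in the untreated ones. The sum over 9 endothelial markers was higher after treatment in M-MDSC of the spleen (133 to 299 against 25.5 to 35.2 CPM) and of the tumor (75.0 to 159 against 20.2 to 44.9), where Cdh5, which defines these cells, was at no more than 5.31 CPM, and the neutrophil sum was 4954 to 13243 against 1531 to 5483 in tumor PMN-MDSC. The part of these markers in the changes of Gpnmb, Spp1 and Lgals3 was not tested.

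Apoe fell in the spleen. Untreated spleen M-MDSC had 640, 757, 576 and 812 CPM and treated ones 217, 116, 70.9 and 242, so the groups were separate (-2.06, SE 0.35, adjusted p = 0.00349), and all 8 fits without 1 library kept the call. Spleen PMN-MDSC went from 586, 366, 186 and 299 CPM to 101, 49.0 and 33.1 (-2.28, SE 0.49, adjusted p = 0.0228). Without untreated library 1 or 4 or treated library 2 or 3 the values were -1.99, -2.37, -2.16 and -2.01, with adjusted p from 0.0504 to 0.0706. In the same spleen PMN-MDSC the macrophage marker sum fell from 293 to 934 CPM to 117 to 193, whereas in spleen M-MDSC it was higher after treatment, as given above. The sum over 7 erythroid markers was lower in both, at 0.675 to 3.16 against 29.7 to 68.8 CPM in M-MDSC and 0.360 to 7.04 against 67.1 to 205 in PMN-MDSC, and that over 8 dendritic cell markers was 1.80 to 5.57 against 32.2 to 78.8 in PMN-MDSC. The part of these cells in the Apoe change was not tested.

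In the tumor Apoe was not called. Treated PMN-MDSC held 12447, 13354, 8952 and 4934 CPM, on both sides of the untreated libraries (0.17, SE 0.29, adjusted p = 0.804). Treated M-MDSC held 3427, 20548 and 7353 CPM, with library 2 far above the others (1.35, SE 0.59, adjusted p = 0.252; without it 0.42, adjusted p = 0.692). The change in Apoe differed between tumor and spleen in PMN-MDSC (2.46, SE 0.57, adjusted p = 0.0280) and in M-MDSC (3.42, SE 0.73, adjusted p = 0.0458). Of all genes, 3.5% and 0.79% were called in these tests of the difference, which called 2 of 8 members tested in PMN-MDSC and 1 of 8 in M-MDSC. Both calls were close to the threshold. The first was lost without any one of 9 of its 15 libraries (2.14 to 2.53, adjusted p from 0.0508 to 0.0838), among them library 1 of untreated spleen PMN-MDSC (2.21, adjusted p = 0.0519). The second was lost without any one of 12 of 15 (2.47 to 3.71, adjusted p from 0.0658 to 0.106), and its lowest value was that without library 2 of treated tumor M-MDSC (2.47, adjusted p = 0.0931).

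Spp1 was called with treatment in tumor PMN-MDSC and in spleen M-MDSC. In tumor PMN-MDSC it fell from 617, 343, 401 and 272 CPM to 256, 243, 168 and 151, just without overlap (-1.04, SE 0.25, adjusted p = 0.0462), and the call was lost without any library except untreated library 4 (-0.78 to -1.12, adjusted p from 0.0537 to 0.117). In the treated libraries Krt8 was at 67.1, 58.7, 30.1 and 18.5 CPM, against 246, 152, 38.8 and 57.9 in the untreated ones, and the Krt18 mean was 47.1 against 108. The sum over the 11 epithelial markers without Lcn2 was 74.1 to 199 CPM against 136 to 831. With Lcn2, which neutrophils also make, that sum was 303 to 1900 CPM against 220 to 849. The part of these tumor cell transcripts in the Spp1 change was not tested. In spleen M-MDSC it was at 3.16, 4.18, 12.4 and 1.67 CPM without and 13.4, 13.7, 25.7 and 64.1 with treatment, a low level still. It passed the filter there through the treated libraries (302 counts against 52), so its call lends no support (2.52, SE 0.71, adjusted p = 0.0379), and the call was lost without untreated library 1, 2 or 4 or treated library 3 or 4 (1.86 to 2.58, adjusted p from 0.0525 to 0.0993). In tumor M-MDSC the treated libraries bracketed the untreated ones (-0.57, SE 0.54, adjusted p = 0.623), with -1.47 without treated library 1 (adjusted p = 0.076) and -0.12 without treated library 2 (adjusted p = 0.905). A tissue difference in its response was not called in either cell type, at -1.36 (SE 0.81, adjusted p = 0.446) in PMN-MDSC and -3.10 (SE 0.97, adjusted p = 0.151) in M-MDSC, where leaving out library 1 of treated tumor M-MDSC gave -4.03 (adjusted p = 0.0380).

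In spleen PMN-MDSC Lpl was lower after treatment, from 63.7, 12.9, 10.8 and 12.2 CPM to 3.20, 0.371 and 1.08, where 2 of 3 treated libraries held 3 counts or fewer (-3.87, SE 0.95, adjusted p = 0.0343). It passed the filter through the untreated libraries, which held 336 counts, 240 of them in library 1, against 9 in the treated ones. Without library 1 of the untreated group the gene did not reach the filter, and without untreated library 4 or treated library 2 or 3 the call was lost (-3.37 to -4.10, adjusted p from 0.0545 to 0.120). In spleen M-MDSC Lpl was at 65.1, 48.9, 135 and 67.2 CPM after treatment (0.20, SE 0.33, adjusted p = 0.701). The Lpl response differed between the spleen populations (4.05, SE 1.0, adjusted p = 0.0205), as for 3 of 6 members tested and 10.9% of 8417 genes, also without library 1 of untreated PMN-MDSC (3.02, adjusted p = 0.0201) but not without library 2 or 3 of treated PMN-MDSC (3.58 and 3.87, adjusted p = 0.0600 and 0.0655). Between spleen and tumor PMN-MDSC it differed by 4.12 (SE 1.08, adjusted p = 0.0479), a call that was lost without any one of 11 of 15 libraries (3.16 to 4.30, adjusted p from 0.0513 to 0.158). In the tumor the changes were 0.22 (SE 0.45, adjusted p = 0.844) in PMN-MDSC and 0.97 (SE 0.37, adjusted p = 0.189) in M-MDSC.

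Lgals3 was higher in PMN-MDSC of treated mice in both compartments. Spleen libraries went from 158, 185, 183 and 151 CPM to 383, 216 and 278 (1.07, SE 0.23, adjusted p = 0.0214), and tumor libraries from 156, 107, 141 and 126 to 296, 267, 184 and 242 (0.87, SE 0.18, adjusted p = 0.0243). The treated libraries lay above the untreated ones in both. The spleen call was lost without untreated library 1, 3 or 4 or treated library 3 (0.99 to 1.09, adjusted p from 0.0507 to 0.0761), and the tumor call without untreated library 2, 3 or 4 or treated library 1 or 2 (0.79 to 0.89, adjusted p from 0.0503 to 0.0844). Spleen M-MDSC held 332, 413, 302 and 299.9 CPM before and 308, 359, 352 and 222 after treatment (-0.06, SE 0.19, adjusted p = 0.849). The difference between the spleen populations was called (-1.19, SE 0.28, adjusted p = 0.0182), and was lost only without library 3 of untreated PMN-MDSC (-1.01, adjusted p = 0.0571). In the tumor the same contrast was -0.86 (SE 0.35, adjusted p = 0.535), where none of 8 members and 0.0239% of 8385 genes were called.

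For the fatty acid binding proteins and Cd9, no treatment effect was called. Fabp5 in spleen M-MDSC was 209, 72.9, 327 and 148 CPM without and 57.2, 102, 54.4 and 32.3 with treatment, with treated library 2 above untreated library 2 (-1.54, SE 0.48, adjusted p = 0.0543). Without either of these 2 libraries the change was called (-1.80 and -1.90, adjusted p = 0.0177 and 0.0441). In spleen PMN-MDSC Fabp5 stood at 79.1, 105, 82.0 and 64.9 and then at 78.8, 145 and 113 CPM (0.74, SE 0.28, adjusted p = 0.130). The contrast of the spleen populations was called for Fabp5 (-2.37, SE 0.60, adjusted p = 0.0227) and was lost only without library 2 of treated PMN-MDSC (-2.07, adjusted p = 0.0567). Fabp4, which is abundant in fat cells and endothelium, reached at most 5.69 CPM in any MDSC library and 3.30 to 7.69 in bulk tumor, was tested in no comparison, and is given only as these levels. Cd9 changed by -0.29 to 0.11 in the 4 comparisons, with adjusted p from 0.460 to 0.985.

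Trem2 transcripts were not called with treatment wherever they could be tested. Tumor PMN-MDSC changed by -0.06 (SE 0.29, adjusted p = 0.937) and tumor M-MDSC by 0.04 (SE 0.37, adjusted p = 0.966), with overlapping libraries in both. In spleen M-MDSC the 4 treated libraries (1.69 to 4.37 CPM) lay below the 4 untreated ones (7.86 to 17.7), at a level under the filter of that comparison, so no test was made. The contrast of the tumor and spleen M-MDSC responses, which takes in all 4 groups, was not called for Trem2 (1.76, SE 0.56, adjusted p = 0.152), except without library 1 of treated tumor M-MDSC (2.05, adjusted p = 0.0495). In spleen PMN-MDSC 1 count was left of 15, a ratio of 0.112 with a 95% exact counting interval of 0.00267 to 0.730.

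**Figure D3:**
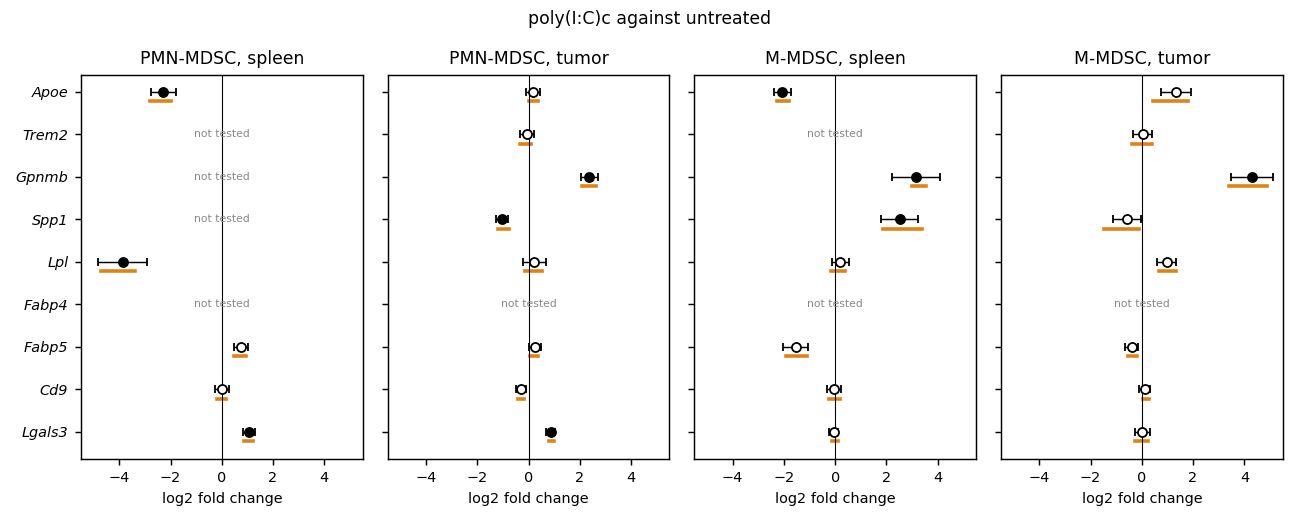
Log2 fold change with treatment for each member in the 4 MDSC populations, with points for the fitted value (filled where adjusted p was under 0.05), black bars for its SE and orange bars for the range over fits that left out 1 library. Gpnmb lies right of 0 in the 3 populations where it was tested, and Apoe lies left of 0 in both spleen populations.

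Between the cell types, Cd9 was the member that separated M-MDSC from PMN-MDSC in every comparison. M-MDSC were set against PMN-MDSC within each compartment and treatment. In the spleen 2 of 5 tested members were called in untreated mice (64.4% of 8579 genes) and 4 of 7 in treated mice (61.2% of 8153). In the tumor 4 of 7 were called in untreated (13% of 7623) and 1 of 8 in treated mice (0.369% of 8955).

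Cd9 was measured in untreated spleen PMN-MDSC at 132, 241, 230 and 223 CPM, where library 1 lay below the others, and in tumor PMN-MDSC at 136, 165, 216 and 202. All M-MDSC libraries held 15.3 to 56.0 CPM, below every PMN-MDSC library (129 to 241). M-MDSC were lower by -3.17 in the spleen of untreated (SE 0.31, adjusted p = 2.6e-05) and of treated mice (SE 0.27, adjusted p = 9.5e-05), by -2.09 in the untreated tumor (SE 0.19, adjusted p = 3.4e-05) and by -1.70 in the treated tumor (SE 0.22, adjusted p = 0.0334). The last was lost without any library except library 1 of treated tumor PMN-MDSC (-1.57 to -1.79, adjusted p from 0.0585 to 0.133), with -1.57 (adjusted p = 0.115) without library 2 of M-MDSC. The gap was narrower in the tumor than in the spleen of untreated mice, by 1.16 (SE 0.37, adjusted p = 0.0215), which was lost without library 2 of untreated PMN-MDSC of either compartment or library 3 of tumor M-MDSC (0.94 to 1.02, adjusted p from 0.0528 to 0.0558).

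In the untreated tumor the libraries labelled PMN-MDSC held more Apoe than M-MDSC (M-MDSC lower by -1.19, SE 0.30, adjusted p = 0.0198) and more Spp1 (-1.09, SE 0.24, adjusted p = 0.0108), and less Lgals3 (M-MDSC higher by 1.02, SE 0.20, adjusted p = 0.00436). The Apoe call was lost without M-MDSC library 2 or PMN-MDSC library 3 or 4 (-1.13 to -1.15, adjusted p from 0.0572 to 0.0599). Trem2 was not called (-0.44, SE 0.27, adjusted p = 0.322). The same PMN-MDSC libraries held more transcript of the complement gene C1qa (508 to 655 CPM against 125 to 334) and of Adgre1, which encodes F4/80 (340 to 390 against 227 to 273). Their part in the Apoe and Spp1 differences was not tested. In the untreated spleen, Lgals3 was higher in M-MDSC (0.62, SE 0.16, adjusted p = 0.00787), while Apoe (0.59, SE 0.29, adjusted p = 0.0989) and Lpl (1.13, SE 0.53, adjusted p = 0.0865) were called only without library 1 of PMN-MDSC (0.88 and 2.16, adjusted p = 0.00941 and 1.12e-04). In the treated spleen Lpl (885 counts in M-MDSC, 9 in PMN-MDSC), Gpnmb (279 and 14) and Spp1 (302 and 25) passed the filter through M-MDSC alone, with fitted differences of 5.30 for Lpl (SE 0.63, adjusted p = 2.7e-04) and 3.30 for Gpnmb (SE 1.24, adjusted p = 0.0479). Spp1 was not called there, except without library 1 of PMN-MDSC (4.05, adjusted p = 0.0069). Fabp5 was lower in M-MDSC by -1.45 (SE 0.40, adjusted p = 0.0132). The Gpnmb call was lost without any one of the 3 PMN-MDSC libraries or M-MDSC library 3 (2.82 to 4.62, adjusted p from 0.0552 to 0.140), and the Fabp5 call without PMN-MDSC library 2 (-1.17, adjusted p = 0.0535). In the treated tumor, leaving Cd9 aside, the members differed by -0.63 to 0.45, with adjusted p from 0.355 to 0.986. Without library 2 of M-MDSC the differences were -0.95 for Apoe, -0.78 for Trem2 and -0.77 for Fabp5 (adjusted p = 0.397, 0.412 and 0.302).

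Spp1 was the single tested member that was higher in bulk tumor than in the sorted tumor cells. Bulk tumor held 2961, 2715, 2725 and 2365 CPM of Spp1, above every MDSC library. Bulk exceeded untreated PMN-MDSC from the tumor by 2.46 (SE 0.25, adjusted p = 3.9e-06) and M-MDSC by 3.59 (SE 0.24, adjusted p = 1.9e-07). Of 7 members tested against PMN-MDSC 1 was higher and 6 were lower in bulk (69.7% of 11138 genes called), and against M-MDSC 1 of 7 was higher and 5 were lower (69.2% of 11022).

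Apoe in bulk tumor was 694, 725, 1196 and 1014 CPM, lower than in PMN-MDSC by -3.5 (SE 0.26) and than in M-MDSC by -2.27 (SE 0.36). Trem2 was at 1.32, 1.33, 1.69 and 1.49 CPM and lower by -4.87 (SE 0.30) and -4.40 (SE 0.31), where it passed the filter through the sorted libraries (299 and 232 counts, against 43 in bulk). Fabp5 (11.9, 7.69, 16.2 and 15.6 CPM) was lower by -3.71 (SE 0.28) and -3.69 (SE 0.26), and Lgals3 (30.7, 23.9, 30.8 and 31.1 CPM) by -2.45 (SE 0.16) and -3.44 (SE 0.24). Adjusted p ranged from 6.9e-08 to 1.4e-04 over these 8 differences. Lpl, at 13.3, 10.9, 10.7 and 32.5 CPM, was lower by -2.18 (SE 0.35, adjusted p = 2.1e-04) and -1.83 (SE 0.38, adjusted p = 0.00111). Cd9, at 55.2, 49.3, 89.4 and 82.2 CPM, lay below PMN-MDSC (-1.66, SE 0.22, adjusted p = 3.9e-05) and was not called against M-MDSC (0.47, SE 0.23, adjusted p = 0.0866), except without library 3 of M-MDSC (0.69, adjusted p = 0.0290) or library 2 of bulk tumor (0.60, adjusted p = 0.0341). Bulk tumor was lysed directly and was neither dissociated nor sorted, so the preparation and the cell content cannot be told apart.

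**Figure D4:**
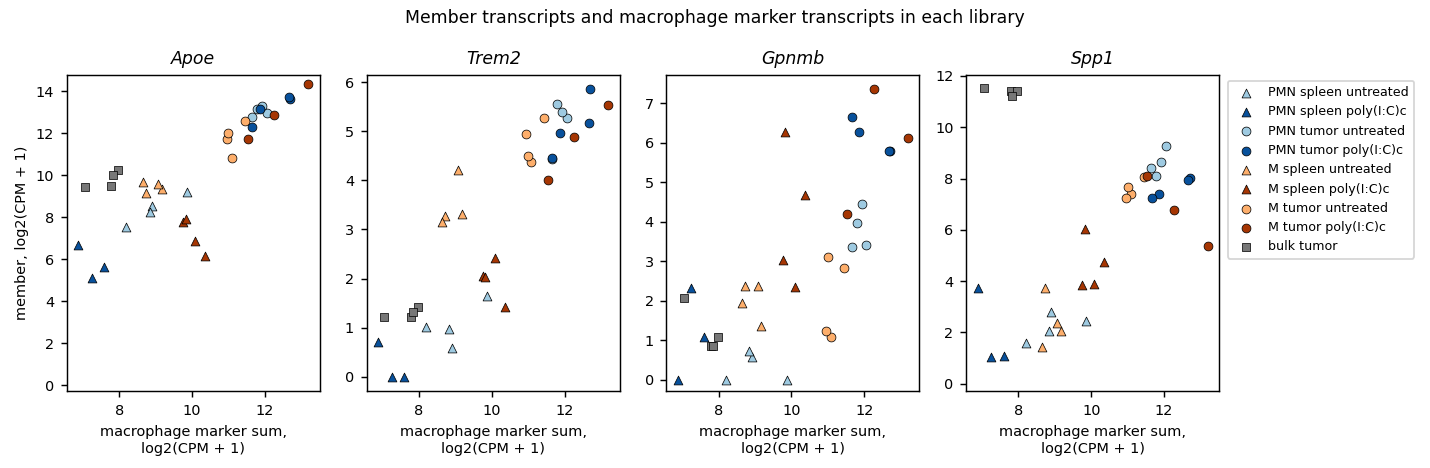
Apoe, Trem2, Gpnmb and Spp1 against the summed level of 12 macrophage marker genes in each library, both as log2(CPM + 1), with 1 point per library and the groups in the legend. Tumor MDSC lie at the upper right for Apoe and Trem2, and the 4 bulk tumor libraries lie at the upper left for Spp1, with much Spp1 and few macrophage transcripts.

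Within the 15 tumor MDSC libraries, Pearson's r with the macrophage marker sum was 0.88 for Apoe, 0.75 for Gpnmb, 0.57 for Trem2, 0.51 for Lpl and -0.32 for Spp1, and within the 15 spleen libraries 0.12, 0.38, 0.21, 0.68 and 0.46. These are descriptions across libraries that share groups and scaling. Apoe and Trem2 had r = 0.93 over all 30 MDSC libraries, 0.74 within tumor and 0.65 within spleen. Apoe and Spp1 had 0.80 overall and -0.16 and -0.18 within the compartments, so their overall value lay between the compartments. Gpnmb was less like Apoe (0.55) and like Trem2 (0.56).

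Of 8533 genes that averaged 25 counts or more in these libraries, the transcripts closest to Apoe were Rnf180 and Psd3 (r = 0.96 each) and Kcnk13 (0.95). Among those closest to Trem2 were Sh3pxd2b and C3ar1 (0.96 each), with lower values within tumor alone (0.45 and 0.30). Gpnmb was closest to Ctsb (0.87), which encodes the lysosomal protease cathepsin B, and AW112010 was also among its 3 closest (0.86), with 0.86 and 0.87 within tumor and 0.78 and 0.75 within spleen. Spp1 was closest to Dab2 and Il1a (0.95 and 0.94), with 0.43 and 0.60 within tumor and 0.71 and 0.58 within spleen. Lpl was closest to Tmem206 and Pygb (0.95 each) and BC017158 (0.94). Cd9 was closest to Cd101 and the neutrophil gelatinase Mmp9 (0.96 each) and Pdlim7 (0.95), with at least 0.96 for each of them within tumor and within spleen. Lgals3 was closest to Capns1, Tspo and Ifitm3 (0.86, 0.85 and 0.84). For Fabp5 no gene exceeded 0.64.

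The partners of the members were read from 12 lists with 127 genes. With treatment 17.2% of the listed genes tested were called in spleen PMN-MDSC (11.6% of all genes), 6.32% in tumor PMN-MDSC (3.36%), 34.4% in spleen M-MDSC (19.4%) and 10.9% in tumor M-MDSC (2.88%). Between the compartments of untreated mice 80.4% were called in PMN-MDSC (59.1% of all genes) and 54.9% in M-MDSC (28.4%). With few genes in a list, its counts describe those genes and are no result about the list. How many listed genes passed the filter through a single group was not determined. For TREM2, the adaptor and signalling list (10 genes) had no call with treatment in any population. In untreated PMN-MDSC 2 of its 9 tested genes were higher in the tumor and 5 were lower (median log2 fold change -0.93, against 0.01 over all genes), among them Tyrobp, the adaptor that TREM2 needs, with a mean of 186 CPM in the tumor and 519 in the spleen (-1.64, adjusted p = 6.4e-04). Of the TREM relatives 6 of 7 were lower there (median -1.39, with 59.1% of all genes called), for example Cd300lb (-2.92, adjusted p = 3.8e-05). With treatment 5 of 7 TREM relatives were higher in spleen M-MDSC and 1 was lower (median 1.55, against -0.03 over all genes, of which 19.4% were called), led by Trem1 (2.57, adjusted p = 6.4e-05), an amplifier of inflammation.

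Of the apolipoprotein list (10 genes) 1 or 2 genes were abundant enough to test between MDSC groups, and 3 against bulk tumor. Clu, the apolipoprotein clusterin, was higher in the tumor in all 4 compartment comparisons, with a mean of 285 CPM against 1.17 in untreated PMN-MDSC (7.84, adjusted p = 3.3e-04). At 1.17 CPM the spleen libraries lay under the filter, so Clu passed there through the tumor libraries alone and its call lends no support. Receptors for lipoproteins and fatty acids were higher in untreated tumor PMN-MDSC for 4 of 7 genes and lower for 1 (median 1.0, with 59.1% of all genes called), led by the scavenger receptors Msr1 (4.32, adjusted p = 2.3e-05) and Olr1 (3.16, adjusted p = 8.0e-05). Lrp1, an endocytic receptor that takes up apolipoprotein E, fell with treatment in spleen PMN-MDSC from a mean of 478 to 23.6 CPM (-4.07, adjusted p = 0.00667) and in spleen M-MDSC from 3088 to 1532 (-0.96, adjusted p = 0.00716). It was the single called gene of its list in the former population, and 1 gene was higher and 2 were lower of 7 in the latter (11.6% and 19.4% of all genes called).

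Of the cholesterol efflux list 1 of 6 tested genes was higher with treatment in spleen PMN-MDSC (11.6% of all genes called) and in tumor PMN-MDSC (3.36%), and 2 of 6 in spleen M-MDSC (19.4%) and in tumor M-MDSC (2.88%), with none lower. Nr1h3, the nuclear receptor LXRα, rose in tumor PMN-MDSC from a mean of 15.1 to 78.9 CPM (2.34, adjusted p = 0.00111), in tumor M-MDSC from 12 to 155 (3.62, adjusted p = 0.00428) and in spleen M-MDSC from 26.4 to 199.8 (2.97, adjusted p = 3.0e-05). Abca1, the transporter that loads apolipoproteins with cholesterol, was higher in the tumor in all 4 compartment comparisons, by 3.28 to 3.93. Of the MITF and lysosomal list that accompanies Gpnmb, 12 of 15 genes were higher in untreated tumor PMN-MDSC and 2 were lower (median 1.35, 59.1% of all genes called), and 10 of 15 were higher in untreated tumor M-MDSC and 1 was lower (median 0.55, against 0.02, 28.4% of all genes called). With treatment 6 of 15 were higher in spleen M-MDSC (19.4% of all genes called) and 4 of 15 in tumor M-MDSC (2.88%), with none lower, and 1 of 14 was higher and 1 lower in spleen PMN-MDSC (11.6%) and 2 of 16 higher in tumor PMN-MDSC (3.36%). Acp5, a lysosomal phosphatase, rose by 1.94 in spleen M-MDSC (adjusted p = 5.1e-04) and by 2.48 in tumor M-MDSC (adjusted p = 0.0440).

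Genes of lipid droplets and esterification were divided in untreated tumor PMN-MDSC (5 higher and 6 lower of 14, 59.1% of all genes called) and M-MDSC (4 and 4 of 13, 28.4%), and Hilpda, a hypoxia-induced droplet protein, was higher by 6.59 (adjusted p = 5.3e-06) and 5.51 (adjusted p = 1.3e-06). Plin2, which coats droplets, rose with treatment in spleen PMN-MDSC (2.62, adjusted p = 0.0308) and tumor PMN-MDSC (1.48, adjusted p = 0.0363). Of the regulators of LPL 1 of 5 tested genes fell in spleen PMN-MDSC (11.6% of all genes called), 1 of 7 in tumor M-MDSC (2.88%) and 3 of 6 in spleen M-MDSC (19.4%), and none rose. The relatives of the fatty acid binding proteins and their nuclear receptors had 1 of 4 genes higher in spleen PMN-MDSC (11.6%), 1 higher and 2 lower of 5 in spleen M-MDSC (19.4%), and no call in the tumor. Osteopontin receptors had 3 of 8 lower in treated spleen PMN-MDSC (median -0.78, 11.6% of all genes called), with Itgb5 at -3.39 (adjusted p = 0.0209) and Itga9 at -3.16 (adjusted p = 0.0180), and no call with treatment in the other populations. Tetraspanins had 1 gene higher and 1 lower with treatment, both in spleen M-MDSC (19.4%). Of the galectin list Lgals3bp, which encodes a partner of galectin-3, rose in all 4 populations, by 2.67 (adjusted p = 0.00881) and 2.02 (adjusted p = 8.5e-04) in PMN-MDSC and by 2.28 (adjusted p = 2.4e-05) and 2.52 (adjusted p = 0.00441) in M-MDSC of spleen and tumor.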

How the data were processed

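Counts per gene were deposited by the authors, who, per the study's methods and the labels, sequenced stranded total RNA libraries, aligned reads to mm10 (GRCm38) with ContextMap 2.7.9 and counted them by strand with featureCounts on Gencode v16. The table has 53379 identifiers, of which 53274 could be given a symbol and a summed exon length. Deposited counts were used unchanged. CPM (per library total) and FPKM were computed here. Members of a comparison with a mean of at least 25 counts were tested with edgeR 4.0.16 (TMM scaling, robust quasi-likelihood F-test, R 4.3.3) on the libraries of the groups compared, and p-values were adjusted by Benjamini-Hochberg over all genes that passed, with a call at an adjusted p under 0.05. Differences between effects were tested as interaction contrasts. An SE is that of the log2 fold change.

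Alternatives were DESeq2 1.42.0, other scalings and filters, 1 fit over all libraries with bulk tumor included, the study's threshold (adjusted p under 0.001 and 2-fold) and leaving out each library. The members, the 12 lists of partner genes and the marker lists were chosen with earlier results of these data known. Text names each member, at most 3 called genes of the largest fold change per list and comparison, and the 3 genes with the highest Pearson's r with a member on log2(TMM-scaled CPM + 1). A few items of these kinds are not reported here. Comparisons share libraries and are not independent. Library totals had a median of 2459368.5 counts in MDSC, and a count of 0 allows a level of up to 3 counts, or 3.78 CPM in the smallest library. Intervals cover counting error only. No 2 libraries were identical. In simulated counts with known changes, 17.9% of 2-fold and 91.6% of 4-fold changes were recovered in the treatment comparison of spleen PMN-MDSC (7310 genes), and 82.3% and 97.9% in that of spleen M-MDSC (8721 genes). Every column was matched to a group.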

Additional observations from a re-analysis of the deposited data

Results flagged for a closer look

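Of 63 sets of 4 libraries, 8 had 1 library far from the other three (a gap past Dixon's 95% critical value), where chance gives about 1 in 20. These were Trem2 in untreated spleen M-MDSC (17.7 CPM), Lpl (63.7 CPM, high) and Cd9 (132 CPM, low) in untreated spleen PMN-MDSC, both in library 1, Fabp4 in untreated tumor PMN-MDSC (5.69 CPM) and in untreated tumor M-MDSC (0.555 CPM, 2 counts), and Gpnmb (3.17 CPM, high), Lpl (32.5 CPM, high) and Lgals3 (23.9 CPM, low) in bulk tumor.

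Effects that differed between groups, by edgeR's interaction test, were the response of Apoe to poly(I:C)c between tumor and spleen (by 2.46 with adjusted p = 0.0280 for PMN-MDSC, by 3.42 with adjusted p = 0.0458 for M-MDSC), that of Lpl between tumor and spleen PMN-MDSC (4.12, adjusted p = 0.0479), and those of Lpl (4.05, adjusted p = 0.0205), Fabp5 (-2.37, adjusted p = 0.0227) and Lgals3 (-1.19, adjusted p = 0.0182) between M-MDSC and PMN-MDSC of the spleen. The compartment difference in untreated mice differed between M-MDSC and PMN-MDSC for Apoe (-1.70, adjusted p = 0.00825), Trem2 (-3.08, adjusted p = 3.7e-04) and Cd9 (1.16, adjusted p = 0.0215). No explanation for these differences was tested. Both Lpl contrasts take in treated spleen PMN-MDSC, with 9 counts in all, against 336 in the untreated ones. The Trem2 contrast takes in untreated spleen PMN-MDSC, with 15 counts in all. Both groups averaged under 25 counts, so these contrasts rest on levels near the floor.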

How the results depend on the processing

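No member result that was called, as reported or under an alternative, reversed its direction, while values that were not called and lay near 0 changed sign in some fits (Trem2 with treatment in tumor M-MDSC was 0.04, and -0.39 without treated library 2). Of the results under settings other than leaving out a library, 1067 stayed on their side of the threshold, 38 lost and 51 gained a call, and with 1 library left out these numbers were 1174, 112 and 17. Under alternatives the share of all genes called was determined only for treatment at the study's threshold, as given above. The counts of called members below therefore describe how calls shift with the setting, and are no result about the members. With DESeq2, added after seeing the data, the study's threshold called 3 and 1 members for treatment in spleen and tumor PMN-MDSC and 2 and 1 in M-MDSC. With edgeR it left 0 members called in each treatment comparison, 4 and 0 in treated PMN-MDSC and M-MDSC between compartments, 2 in untreated M-MDSC, 1 and 2 between cell types in untreated and treated spleen, 1 and 0 in untreated and treated tumor, 0 in the differences of treatment effects that had calls, and 1 in the compartment by cell type contrast. Requiring 10 counts in every library left 1 call in treated spleen M-MDSC, 0 in treated tumor M-MDSC, 1 each between the compartments of treated mice, 2 between cell types in treated spleen and 0 in the treatment by compartment contrast of PMN-MDSC. A single fit over all libraries, bulk tumor included, gave 5 calls for treatment in spleen M-MDSC, 4 for treated M-MDSC between compartments, 7 between cell types in treated spleen and 2 in untreated tumor. Without a filter 4 were called for treated M-MDSC between compartments, 6 between cell types in untreated spleen, and 1 and 4 in the treatment by compartment contrasts of PMN-MDSC and M-MDSC. DESeq2 called 4 for treated M-MDSC between compartments and 2 in that contrast of M-MDSC, DESeq2's size factors 1 in that of PMN-MDSC, and upper-quartile scaling or library totals alone 5 between cell types in untreated spleen. Without all 3 libraries that stood apart, chosen after seeing the data, 0 members were called for treatment in spleen PMN-MDSC and tumor M-MDSC, 1 for treated M-MDSC between compartments, 4 and 0 between cell types in untreated spleen and treated tumor, 0 in both treatment by compartment contrasts and 5 in the compartment by cell type contrast.

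With 1 library left out, calls ranged from 0 to 3 and 1 to 2 for treatment in spleen and tumor PMN-MDSC, 1 to 4 and 0 to 1 in M-MDSC, 3 to 6 and 5 to 6 between compartments in untreated and treated PMN-MDSC, 3 to 4 and 1 to 2 in M-MDSC, 2 to 4 in both spleen cell type comparisons, 3 to 4 and 0 to 1 in the tumor ones, 7 to 7 and 6 to 7 for bulk tumor against PMN-MDSC and M-MDSC, 0 to 2 and 0 to 3 in the treatment by compartment contrasts, 1 to 4 and 0 to 0 in the treatment by cell type contrasts and 2 to 4 in the compartment by cell type contrast. TMM scaling moved 8 group means beyond 1 SD, for example Apoe in untreated spleen M-MDSC to 571 CPM. The cause of these changes was not tested. No paired analysis was possible without matching columns to mice by order, because the deposited columns carry a running number and no mouse number. Columns were not matched in this way, although the running numbers follow the titles, so differences within a mouse were not tested. A member at 0 in the smallest library may be at up to 3.78 CPM.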
